A study of Mus musculus with 6 samples.

Results

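The 31 genes described here encode enzymes, regulators and transporters of cholesterol and fatty acid synthesis. They were chosen by name from what the pathway is known to contain. The rule uses no measured value, but the choice was made with earlier results of these data known. A probe set was taken where the array annotation gives it to exactly 1 gene and that gene is 1 of the 31. This gave 72 of the 45037 probe sets tested, and each gene was followed through the probe set with the highest mean over all arrays. The 31 genes are thus 31 of 18193 genes, and 9 of them have 1 probe set.

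RNA came from CTL, cytotoxic CD8 T cells grown in vitro from splenocytes of P14 LCMV TCR transgenic C57BL/6 mice of 8 to 12 weeks, whose T cell receptor recognises a viral peptide. All cells received gp33-41 peptide for 48 hours, retrovirus 18 hours after the peptide was added, and then IL-2 for a further 48 hours per the labels, while the legend of the study's gene list gives a longer time in IL-2. The control cells carried a vector with GFP alone (evGFP, 3 arrays) and the other cells a GFP-KLF2 fusion (GFP-KLF2, 3 arrays), and GFP-positive cells were sorted for RNA. KLF2 is a zinc finger transcription factor that naive T cells express and that activated T cells lose, so that the comparison asks what changes when its expression is kept. The labels call the replicates biological. In both groups the gene came from a vector in activated cells, and the amount of GFP-KLF2 per cell was not measured on these arrays, since per the study the construct lacks the end of the transcript that the Klf2 probes read. The labels could therefore not be checked by the level of Klf2.

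Animal cells make cholesterol from acetyl-CoA through mevalonate, isoprenoids, squalene and lanosterol. The genes of this route are turned on together by SREBP2 when sterols in the endoplasmic reticulum are low, while SREBP1 acts more on the fatty acid enzymes. SCAP carries both SREBPs to the Golgi for cleavage, and INSIG proteins hold SCAP back when sterols are plentiful. When sterols are in excess, oxysterols activate LXR receptors, which raise the cholesterol exporters ABCA1 and ABCG1. Activated T cells are known to raise both routes to build membranes for division.

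Promoter windows of 4 genes are given as examples of those searched for control sequences. They are those of Fasn, Elovl6 and Acaca, the 3 fatty acid enzymes that fell, and of Hmgcs1. Hmgcs1 is an early enzyme of the mevalonate route and did not pass the test. Each line gives the 180 bases before a RefSeq transcript start in the mouse build GRCm38.p6, in the direction of transcription. The windows are chr11:120824548-120824727 on the minus strand for Fasn, chr3:129532206-129532385 on the plus strand for Elovl6, chr11:84195258-84195437 on the plus strand for Acaca and chr13:119690171-119690350 on the plus strand for Hmgcs1. Capitals mark matches, on either strand, to the SREBP element TCACNCCAC or to the Kruppel-like element CCNCNCCC.

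Fasn: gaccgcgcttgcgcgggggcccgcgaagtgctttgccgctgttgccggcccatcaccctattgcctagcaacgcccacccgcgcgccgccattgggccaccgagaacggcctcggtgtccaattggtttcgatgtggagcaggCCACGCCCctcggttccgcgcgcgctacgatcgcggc

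Elovl6: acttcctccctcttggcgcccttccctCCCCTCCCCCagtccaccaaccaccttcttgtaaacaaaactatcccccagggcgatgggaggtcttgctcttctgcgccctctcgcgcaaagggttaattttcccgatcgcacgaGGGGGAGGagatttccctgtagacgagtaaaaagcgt

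Acaca: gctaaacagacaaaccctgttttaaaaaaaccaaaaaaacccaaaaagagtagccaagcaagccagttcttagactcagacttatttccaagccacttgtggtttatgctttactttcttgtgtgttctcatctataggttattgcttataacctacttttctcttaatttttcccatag

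Hmgcs1: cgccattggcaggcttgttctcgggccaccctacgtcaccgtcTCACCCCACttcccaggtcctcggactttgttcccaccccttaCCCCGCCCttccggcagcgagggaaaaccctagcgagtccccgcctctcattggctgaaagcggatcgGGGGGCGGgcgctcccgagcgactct

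The 1 Acaca window at hand held no match to any of the 4 motifs searched. Any other transcript starts of Acaca were not searched, so this does not describe the gene as a whole. In the Hmgcs1 promoter the SREBP element began at position -137, counted from the start. Promoters of 250 bases before to 50 bases after the start were at hand for 24 of the 31 genes, 32 promoters in all, and 4 motifs were counted on both strands with overlapping matches allowed, so that matches of TCACNCCAC and CCNCNCCC may share letters. TCACNCCAC stood in 1 of the 32 promoters (3.12%), that of Hmgcs1, and in 1.24% of all 32851 promoters of that length. The CCAAT box (CCAAT), which binds NF-Y, a usual partner of SREBP, stood in 21 of 32 (65.62%) against 37.41% of all. The E-box CACGTG, a palindrome, stood in 7 of 32 (21.88%) against 7.15%, and CCNCNCCC in 21 of 32 (65.62%) against 49.47%. Some genes have several promoters, and overlapping windows of Scap hold the same E-box. By gene the CCAAT box stood in 20 of 24, the E-box in 6 and CCNCNCCC in 19. These matches are a description of letters in a window and no test was made of them.

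The calls lay in the fatty acid branch and in 1 transporter. Of the 6 fatty acid enzymes, 3 fell in GFP-KLF2 cells: Fasn by 0.73, Elovl6 by 0.70 and Acaca by 0.48 on the log2 scale. None of the 17 cholesterol synthesis enzymes and none of the 5 SREBP regulators passed the test in either direction, and the cholesterol exporter Abcg1 rose by 1.43. Among those not called, Dhcr7 of the sterol enzymes differed by -0.67 (limma adjusted p 0.0621), more than the called Acaca. A difference between the branches was not tested. A gene was called when limma's moderated test, adjusted by Benjamini-Hochberg over all 45037 probe sets, gave an adjusted p under 0.046. Over the 31 genes, 1 rose and 3 fell while 27 did not pass, where 6.22% of all 18193 genes rose and 8.35% fell. Among genes with a mean log2 intensity of at least 8, to which 29 of the 31 belong, 11.1% rose and 16.3% fell. The counts of the 31 genes were near or below these shares. The median log2 fold change of the 31 genes was -0.02, and that of all genes -0.01. In RNA from a pool of cells, fewer cells that express a gene and less RNA per cell cannot be told apart.

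**Figure D1:**
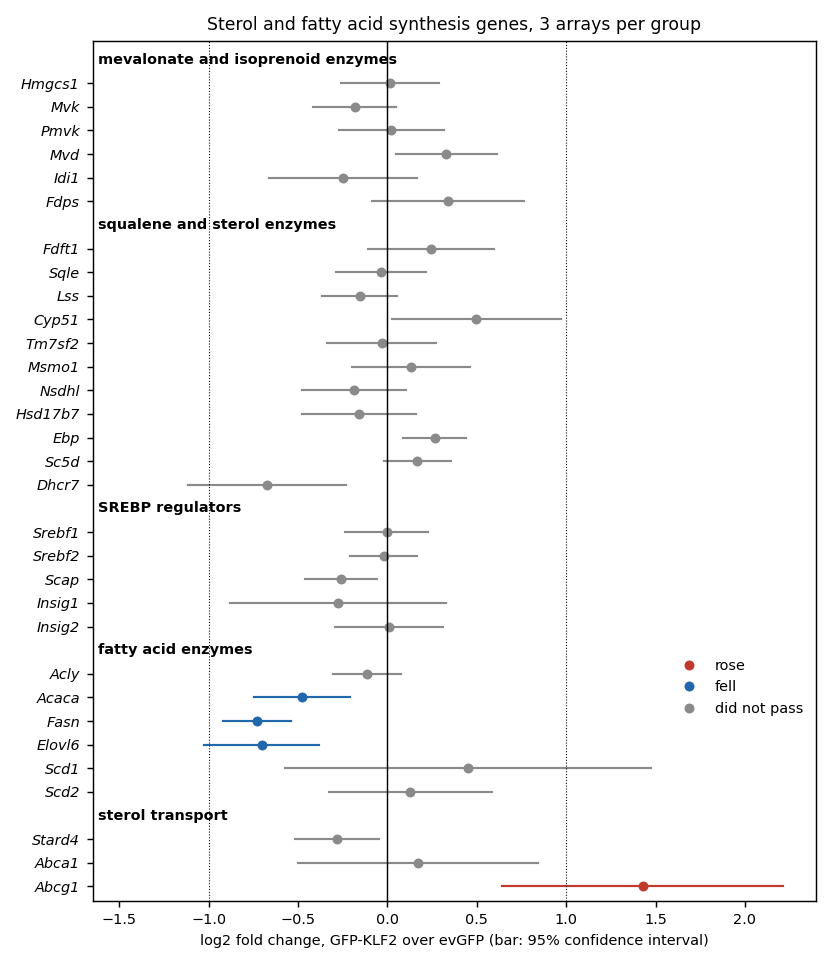
Log2 fold change of GFP-KLF2 over evGFP (x axis) for each of the 31 genes (y axis, grouped by role), with the 95% confidence interval as a bar and 3 arrays per group. Dotted lines mark 2-fold changes, red marks the 1 gene that rose, blue the 3 that fell and grey the 27 that did not pass.

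Fasn encodes fatty acid synthase, the multienzyme that builds palmitate from malonyl-CoA. Its log2 intensities (probe set 1423828_at) were 11.25, 11.29 and 11.11 in evGFP replicates 1, 2 and 3 and 10.56, 10.45 and 10.46 in GFP-KLF2. All 3 GFP-KLF2 arrays lay below all 3 evGFP arrays, and the SD was 0.093 in evGFP and 0.060 in GFP-KLF2 (n = 3 each). The difference was -0.73 (SE 0.08, limma adjusted p 0.00282), a level 1.66-fold lower, with a 95% confidence interval from -0.92 to -0.54. It passed whichever array was left out, with adjusted p from 0.00482 to 0.0183.

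Elovl6 encodes the elongase that extends palmitate to stearate. Its values (1417404_at) were 9.92, 9.83 and 9.64 in evGFP and 9.30, 9.16 and 8.82 in GFP-KLF2, again without overlap, and in both groups the array of replicate 3 was the lowest. The difference was -0.70 (SE 0.14, adjusted p 0.0183), 1.63-fold lower, and with the replicate number as a block the adjusted p was 0.00364. A second bright probe set of Elovl6 (1417403_at) gave a difference of -0.84 (adjusted p 0.0225), while the third (1442656_at), near the dim end at a mean of 5.07 in evGFP, gave -0.17 and did not pass. The call was lost without evGFP replicate 1 (adjusted p 0.0672), without evGFP replicate 2 (0.07) and without GFP-KLF2 replicate 2 (0.0509).

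Acaca encodes acetyl-CoA carboxylase 1, which makes the malonyl-CoA that FASN uses. Its values (1434185_at) were 9.23, 9.24 and 9.31 in evGFP and 9.01, 8.58 and 8.75 in GFP-KLF2, so that the groups did not overlap but the fall was smaller in replicate 1 than in replicates 2 and 3. The difference was -0.48 (SE 0.11, adjusted p 0.0369), 1.39-fold lower. The call was kept in 1 of 6 fits that left out an array, without GFP-KLF2 replicate 1 (0.0234), and lost without evGFP replicate 1 (0.094), 2 (0.105) or 3 (0.091) and without GFP-KLF2 replicate 2 (0.0955) or 3 (0.0905). Its other probe set (1427595_at), at a mean of 4.36 in evGFP, gave a difference of -0.06, and the mean of both probe sets did not pass (-0.27, adjusted p 0.193).

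The other 3 fatty acid enzymes did not pass. Acly, the ATP citrate lyase that supplies cytosolic acetyl-CoA, differed by -0.12 (95% confidence interval -0.31 to 0.07). Scd1 and Scd2 are desaturases that turn stearate into oleate. For Scd1 (1415964_at) the evGFP values were 7.88, 8.35 and 8.71 and the GFP-KLF2 values 9.83, 8.06 and 8.40. GFP-KLF2 replicate 1 was the highest of the 6 arrays and the other GFP-KLF2 arrays lay within the range of evGFP, and the difference of 0.45 had an interval from -0.57 to 1.47. Scd2 had values of 12.53, 12.82 and 12.81 in evGFP and 13.30, 12.69 and 12.55 in GFP-KLF2, again with GFP-KLF2 replicate 1 the highest, and differed by 0.13 (interval -0.33 to 0.58). Over all 6 fatty acid enzymes the median difference was -0.30, and the medians of the differences between arrays of one replicate number were -0.08, -0.48 and -0.43 for replicates 1, 2 and 3. In pairs 2 and 3 all 6 enzymes were lower in GFP-KLF2, as 0 of 6 were higher, whereas 3 of 6 were higher in pair 1.

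**Figure D2:**
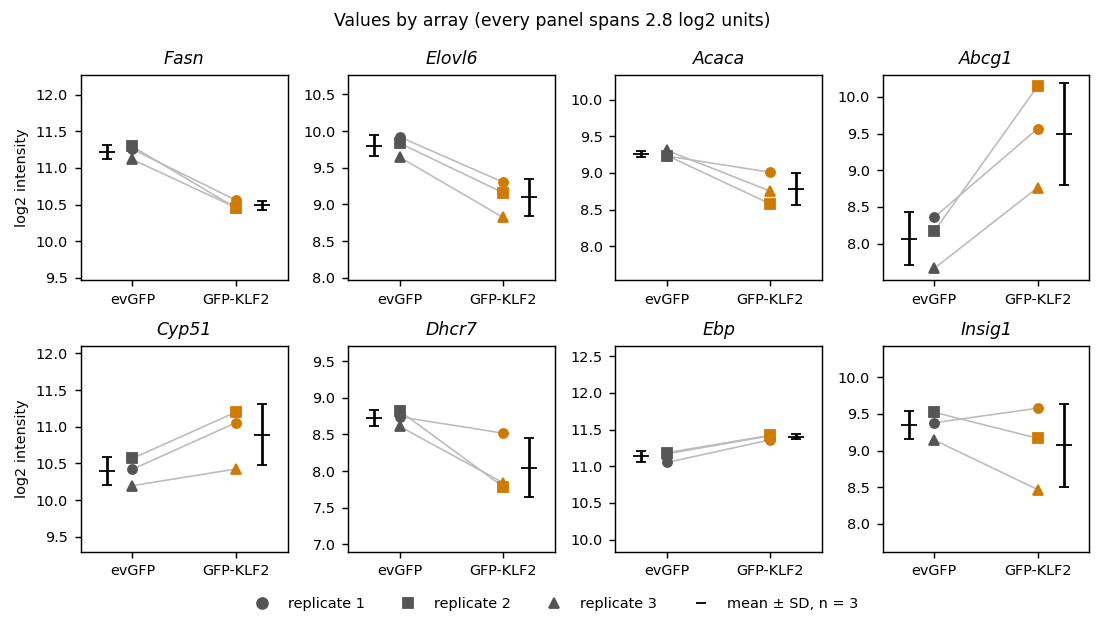
Log2 intensity (y axis) of 8 genes in each array of evGFP and GFP-KLF2, with 1 symbol per replicate number, grey lines between arrays of one number, and the mean with SD (n = 3) beside the points. The groups separate without overlap for Fasn, Elovl6, Acaca, Abcg1, Dhcr7 and Ebp, and overlap for Cyp51 and Insig1.

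The cholesterol synthesis enzymes were centred near zero as a group and more scattered among the GFP-KLF2 arrays. Of the 17 enzymes 9 lay above zero and 8 below, with differences from -0.67 (Dhcr7) to 0.50 (Cyp51) and a median of 0.01. Under cyclic loess 11 lay above zero and 6 below with a median of 0.09, where the median of all genes with a mean log2 intensity of at least 8 moved from -0.08 to 0.01. The 95% confidence interval lay within 1.5-fold either way for 11 of the 17 and within 2-fold for 16. The groups did not overlap for 3 enzymes that were higher (Mvd, Ebp and Sc5d) and 3 that were lower (Mvk, Lss and Dhcr7). Over all 31 genes 4 were higher without overlap and 8 lower, where 14.3% of all genes were higher and 20.6% lower in this way.

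In the mevalonate and isoprenoid steps none of the 6 enzymes passed. Hmgcs1, the synthase that makes HMG-CoA, had values of 12.11, 12.31 and 12.20 in evGFP and 12.42, 12.23 and 12.01 in GFP-KLF2 (1433445_x_at). The GFP-KLF2 arrays were thus both the highest and the lowest of the 6, and the difference was 0.01 with an interval from -0.26 to 0.29. Its 4 other probe sets gave differences from -0.13 to 0.04. Mvk and Pmvk, the kinases of mevalonate and phosphomevalonate, differed by -0.18 and 0.02. Mvd, the decarboxylase that gives isopentenyl diphosphate, differed by 0.33 (adjusted p 0.137) and by 0.32 in its other probe set, and passed only without GFP-KLF2 replicate 3 (0.46, adjusted p 0.0286, where the range over its alternatives was 0.0286 to 0.339). Idi1, the isomerase of isopentenyl diphosphate, differed by -0.25 (interval -0.66 to 0.17). For Fdps, which makes farnesyl diphosphate, the branch point to sterols, prenylation and dolichol, values were 11.81, 11.86 and 11.90 in evGFP and 12.64, 12.09 and 11.86 in GFP-KLF2. GFP-KLF2 replicate 1 was well above evGFP and replicate 3 within its range, and the difference was 0.34 (adjusted p 0.316).

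Of the 11 squalene and sterol enzymes none passed, and 2 that stand at opposite ends passed once the replicate number entered the fit as a block. Cyp51, the demethylase that acts on lanosterol, had values of 10.42, 10.57 and 10.20 in evGFP and 11.05, 11.20 and 10.42 in GFP-KLF2 (1450646_at). It was higher in GFP-KLF2 within each replicate number, by 0.63, 0.63 and 0.23, although the groups overlapped. The difference was 0.50 (SE 0.20, adjusted p 0.179), with an adjusted p of 0.0245 with the block, 0.0209 without GFP-KLF2 replicate 3 and up to 0.418 over its alternatives. Its 2 other probe sets gave 0.44 and 0.40 and did not pass.

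Dhcr7, the reductase that makes cholesterol in the last step of one branch, had values of 8.74, 8.82 and 8.61 in evGFP and 8.52, 7.79 and 7.84 in GFP-KLF2. All GFP-KLF2 arrays lay below evGFP, replicate 1 by the least. The difference was -0.67 (SE 0.19, adjusted p 0.0621), with an adjusted p of 0.0308 with the block, 0.00859 without GFP-KLF2 replicate 1 and up to 0.178 over its alternatives. With the block 2 of the 31 genes rose (Abcg1 and Cyp51) and 4 fell (Fasn, Elovl6, Acaca and Dhcr7), where 8.58% of all genes rose and 12.1% fell. Arrays of one number deviated alike from their group means over all probe sets (r of 0.33, 0.44 and 0.47), but over the 31 genes r was -0.46 for replicate 1, 0.21 for replicate 2 and 0.56 for replicate 3. Between arrays of different numbers r over the 31 genes ran from -0.69 to 0.72, the highest for evGFP 1 with GFP-KLF2 2. By r, over these genes the replicate numbers did not mark the arrays that deviated most alike. But r weighs most the genes with the widest spread, such as Scd1, and does not show how pairing acts gene by gene. With the block the SE was smaller for all of the 31 genes but Srebf2, Acly and Scd2. For Cyp51 it was 0.10 against 0.20 without the block, and for Dhcr7 0.15 against 0.19.

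Ebp, the sterol isomerase, differed little but with small spread. Its values were 11.05, 11.19 and 11.17 in evGFP and 11.36, 11.42 and 11.42 in GFP-KLF2, all GFP-KLF2 arrays higher, and the difference was 0.26 (SE 0.08, adjusted p 0.0641). It passed under 4 alternatives, with adjusted p from 0.0259 to 0.175 over all alternatives, and in 0 of 6 fits that left out an array. Ebp has 1 probe set, so removal of dim probe sets and the mean of all probe sets used the same values for it. Of the remaining 8 enzymes 7 did not pass under any alternative. Fdft1, the squalene synthase, differed by 0.24 (adjusted p 0.394) and passed without GFP-KLF2 replicate 3 (0.43, adjusted p 0.0289, where the highest over its alternatives was 0.722). Sqle, the rate-limiting squalene epoxidase, differed by -0.04 with an interval from -0.29 to 0.21. Lss, which closes squalene epoxide into lanosterol, differed by -0.16, Tm7sf2, a sterol reductase, by -0.03, and Msmo1, a sterol methyl oxidase, by 0.13. Nsdhl and Hsd17b7, which with Msmo1 remove methyl groups, differed by -0.19 and -0.16, and Sc5d, the sterol desaturase before DHCR7, by 0.17.

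**Figure D3:**
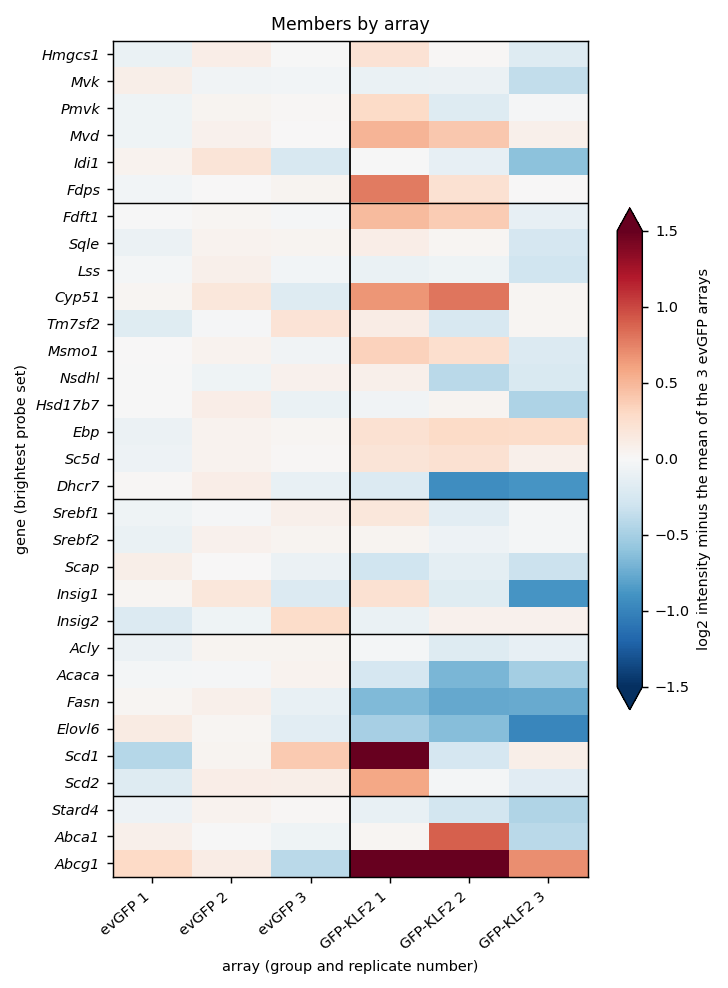
Log2 intensity of each of the 31 genes (rows, grouped by role) in each of the 6 arrays (columns), shown as the difference from the mean of the 3 evGFP arrays of that gene on a colour scale that ends at 1.5 either way. GFP-KLF2 replicate 1 is red and replicate 3 blue for many sterol enzymes, and Fasn, Elovl6 and Acaca are blue in all 3 GFP-KLF2 arrays.

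Many of the 31 genes shared a feature that their means do not show. The SD of the cholesterol synthesis enzymes was larger in GFP-KLF2 than in evGFP for 15 of the 17 (88.24%), where 48.5% of all genes had the larger SD in GFP-KLF2. The exceptions were Ebp and Tm7sf2. The same held for 5 of 6 fatty acid enzymes (83.33%, all but Fasn), for all 3 sterol transport genes and for 3 of 5 SREBP regulators, and so for 26 of the 31 genes (83.87%). The median SD of the 17 was 0.073 in evGFP and 0.240 in GFP-KLF2, and that of all genes 0.113 and 0.109. GFP-KLF2 replicate 1 was the highest of the 6 arrays for 8 of the 17 (47.06%, all genes 12.94%), and GFP-KLF2 replicate 3 the lowest for 8 of the 17 (47.06%, all genes 15.05%). Taken as the median deviation from the evGFP mean, the 17 enzymes stood at 0.19, 0.03 and -0.20 in GFP-KLF2 replicates 1, 2 and 3, and at between -0.03 and 0.05 in evGFP.

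Within replicate numbers, 12 of the 17 enzymes were higher in GFP-KLF2 in pair 1, 7 in pair 2 and 4 in pair 3, with median differences of 0.29, -0.03 and -0.17. Over all 31 genes 20, 10 and 5 were higher, which is 64.52%, 32.26% and 16.13%, where the shares of all genes were 44.89%, 46.0% and 49.75%. A like spread was seen in some related lists and not in others: the SD was larger in GFP-KLF2 for 10 of 11 glycerolipid genes (90.91%) and 10 of 13 other fatty acid genes (76.92%), but for 3 of 8 SREBP processing genes (37.5%) and 5 of 11 fatty acid oxidation genes (45.45%). The 17 enzymes share their regulator and their arrays, so they are not independent, and the difference in spread was not tested. With 3 arrays per group, 1 array can set both the SD and the order.

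The SREBP regulators did not pass. Srebf1 and Srebf2, which encode the SREBPs, differed by -0.005 and -0.02, with intervals from -0.24 to 0.23 and from -0.21 to 0.17. Transcripts of Srebf1 that begin at different starts were not told apart here. Scap differed by -0.26 (adjusted p 0.107) and its 3 GFP-KLF2 values of 10.74, 10.89 and 10.72 lay below the evGFP values of 11.13, 11.04 and 10.95. Insig1, itself a sensitive SREBP target, had values of 9.38, 9.52 and 9.14 in evGFP and 9.58, 9.17 and 8.47 in GFP-KLF2. The GFP-KLF2 arrays stood in the same order as for the median of the sterol enzymes, and the difference of -0.28 had an interval from -0.88 to 0.33. Insig2 differed by 0.01.

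Abcg1, which encodes an exporter that passes cholesterol to lipoprotein particles, was the 1 gene of the 31 that rose. Its values (1423570_at) were 8.36, 8.17 and 7.66 in evGFP and 9.57, 10.15 and 8.76 in GFP-KLF2. All 3 GFP-KLF2 arrays lay above evGFP, but they differed among themselves by more than the evGFP arrays did. The rise was 1.43 (SE 0.34, adjusted p 0.0349), 2.69-fold, with rises of 1.21, 1.98 and 1.10 within replicate numbers and an adjusted p of 0.00435 with the block. Its other probe set (1455221_at) rose by 0.97 (adjusted p 0.0456). The call was kept without GFP-KLF2 replicate 3 (0.00991) and lost without evGFP replicate 1 (0.0684), 2 (0.0946) or 3 (0.0906) and without GFP-KLF2 replicate 1 (0.104) or 2 (0.0776).

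Abca1, the other exporter raised by LXR, was dim, at 5.42, 5.33 and 5.27 in evGFP and 5.36, 6.23 and 4.94 in GFP-KLF2. The groups overlapped, GFP-KLF2 replicate 2 alone stood high, and the difference of 0.17 had an interval from -0.50 to 0.84. Stard4, which carries cholesterol between membranes, differed by -0.28 (adjusted p 0.131) in its brightest probe set. A second probe set (1429239_a_at) fell by 0.36 (adjusted p 0.0349), from 9.46, 9.53 and 9.38 in evGFP to 9.21, 9.06 and 9.02 in GFP-KLF2, and the third differed by -0.47 (adjusted p 0.0708). All 3 probe sets of Stard4 thus had lower values in GFP-KLF2 without overlap, and their mean passed (-0.37, adjusted p 0.0446, where the range over the alternatives was 0.0446 to 0.359).

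Over the 72 probe sets 2 rose and 5 fell, where 4.76% of all probe sets rose and 6.39% fell. The 2 that rose were those of Abcg1. The 5 that fell were the brightest of Fasn, Acaca and Elovl6, the second of Elovl6 and the second of Stard4.

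**Figure D4:**
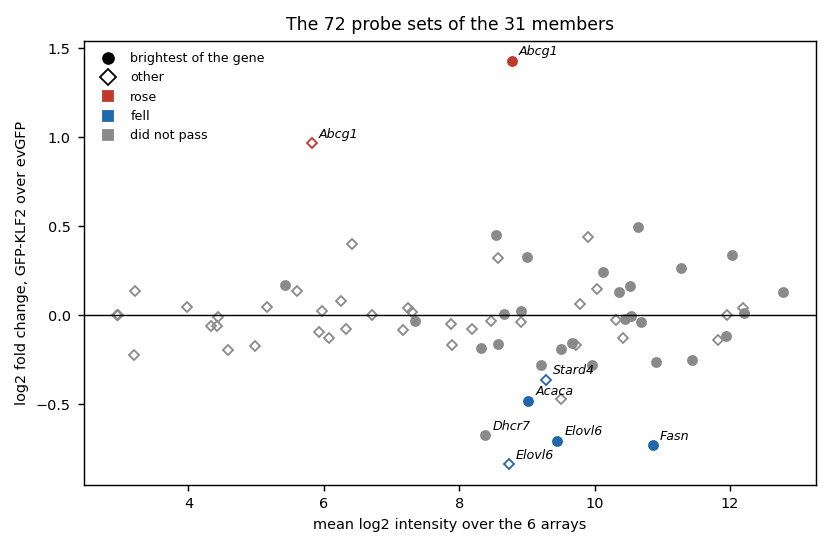
Log2 fold change of GFP-KLF2 over evGFP (y axis) against the mean log2 intensity over the 6 arrays (x axis) for the 72 probe sets of the 31 genes. Filled circles are the brightest probe set of a gene and open diamonds the others, with 2 red probe sets that rose, both of Abcg1, and 5 blue ones that fell.

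Other genes of lipid metabolism were listed by function, 84 in all, of which 76 had a probe set annotated to 1 gene and the rest were not analysed here. Of the 76, 8 rose and 11 fell, with a median of -0.01, and the shares of genes risen and fallen in all genes are those given above. Acss2, the synthetase that makes cytosolic acetyl-CoA from acetate, had the largest change, from 7.32, 6.99 and 7.47 in evGFP to 9.69, 9.18 and 9.23 in GFP-KLF2. The groups stood far apart, and the rise was 2.10 (SE 0.17, adjusted p 0.000982), 4.30-fold. Of its 2 other probe sets 1 also rose, with differences of 0.29 and 2.52. It was the 1 gene called among the 8 measured of acetyl-CoA and NADPH supply. With the replicate number as a block 11 of the 76 genes rose and 14 fell. In this list Acat1, a mitochondrial thiolase (-0.47, adjusted p 0.0189 with the block and 0.0529 without), and Pgd, an NADPH-making enzyme (-0.45, 0.0172 and 0.0776), then also fell. In the other lists Ube2g2, a ubiquitin-conjugating enzyme, Lpin1, a phosphatidate phosphatase, and Rxra, a partner of LXR, rose with the block (adjusted p 0.0359, 0.0145 and 0.0151), and the oxidation enzyme Acadm fell (0.041).

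Among 8 SREBP processing genes Erlin1, an endoplasmic reticulum protein that binds the SREBP, SCAP and INSIG complex, fell by 0.72 (SE 0.09, adjusted p 0.00474), with all 3 arrays below evGFP, and the other 7 did not pass without the block. Among 8 other sterol and prenyl enzymes Nus1, a subunit of the dolichol enzyme, fell by 0.40 and Coq2, a prenyltransferase of ubiquinone synthesis, by 0.33, while all 8 lay below zero with a median of -0.18. Among 13 other fatty acid and acyl-CoA enzymes 2 rose and 3 fell. Fads3, of the front-end desaturase family, rose by 1.11 and the elongase Elovl7 by 1.04. The acyl-CoA synthetase Acsl3 fell by 1.30 and Hacd2, a dehydratase of the elongation cycle, by 0.47. The elongases Elovl7 and Elovl6 thus moved in opposite directions. Over the 17 genes named from these lists with a call the adjusted p ran from 0.000982 (Acss2) to 0.0386 (Coq2).

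Of 11 glycerolipid genes 1 rose and 2 fell. Pcyt1a, the rate-limiting enzyme of phosphatidylcholine synthesis, rose by 1.36, and its counterpart for phosphatidylethanolamine, Pcyt2, fell by 0.43, as did the acyltransferase Agpat5 by 0.54. Of 17 genes of oxysterol receptors, esterification and lipid uptake 3 rose and 2 fell: the lipid transfer protein Osbpl8 rose by 0.75 and Npc2, the lysosomal cholesterol carrier, by 0.66, while the cholesterol ester hydrolase Nceh1 fell by 0.62 and the HDL receptor Scarb1 by 0.61. The LXR gene Nr1h3, an activator of Abcg1, differed by 0.15 at a mean log2 intensity of 6.15 in evGFP and did not pass. Nr1h2, the other LXR gene, was not analysed here. Mylip, another LXR target, differed by 0.44 (adjusted p 0.292) and did not pass. Of 11 oxidation genes the dehydrogenase Acadl rose by 0.90 and Hadh fell by 1.01.

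Of these 19 called genes 7 passed whichever array was left out (Erlin1, Acss2, Elovl7, Fads3, Nceh1, Scarb1 and Acadl). The only other probe set of Erlin1 gave -0.41 and that of Acadl 0.18, and neither passed. Other probe sets passed in the same direction for Elovl7 (4 of 5), Scarb1 (2 of 2), Acss2, Fads3 and Nceh1 (1 of 2 each). The remaining 12 called genes lost the call in at least 1 fit that left out an array. Acsl3 lost it without evGFP replicate 2, Hacd2 without GFP-KLF2 replicate 1, Npc2 without evGFP replicate 1, Pcyt1a without evGFP replicate 2 or GFP-KLF2 replicate 1, and Osbpl8 without GFP-KLF2 replicate 1 or 2, with adjusted p from 0.0463 (Npc2) to 0.0616 (Pcyt1a) at the highest. Nus1 and Coq2 passed in 1 of 6 such fits each, Hadh in 1 of 6, and Agpat5 and Pcyt2 in 2 of 6, with a highest adjusted p of 0.128 (Coq2). Hadh is read by a probe set whose name ends in _x_at, which marks probes that may bind other transcripts, and with such probe sets removed it was not called. Among the named genes, the brightest probe sets of Hmgcs1, Fdft1, Hsd17b7, Elovl7, Scarb1 and Pgd have names that end in _x_at too. The same alternative removed probe sets whose names end in _s_at, such as the brightest of Mvd, Lss, Nus1 and Acsl3. Tecr and Stard3, the other 2 called genes, passed in 0 and 1 of 6. Without GFP-KLF2 replicate 1 the number risen was 5, and without evGFP replicate 1 or 2 or GFP-KLF2 replicate 1 or 2 the number fallen was 5, 4, 5 and 5.

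**Figure D5:**
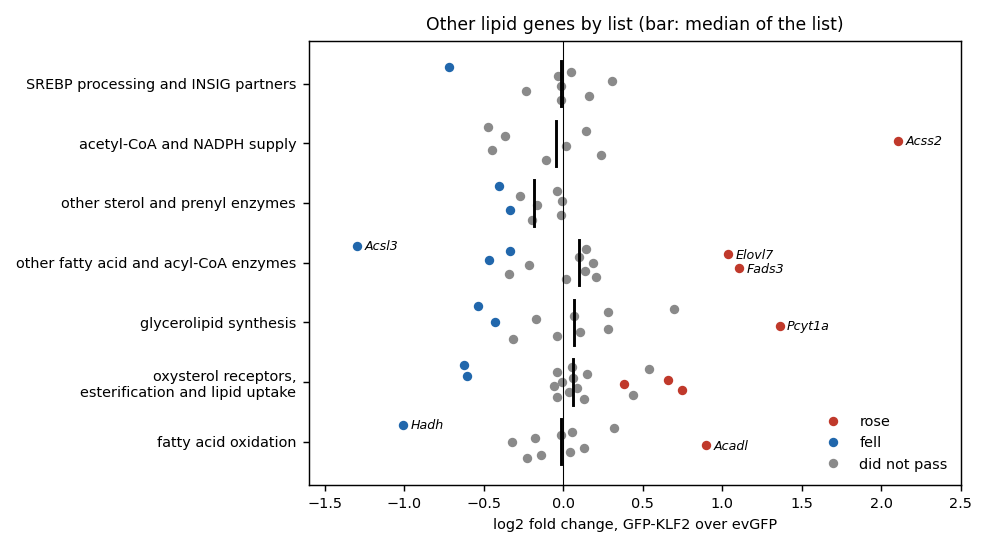
Log2 fold change of GFP-KLF2 over evGFP (x axis) for the 76 other lipid genes in 7 lists (y axis, points spread vertically for legibility), with red for the 8 that rose, blue for the 11 that fell, grey for the rest and a black bar at the median of each list. The medians lie close to zero, from -0.18 to 0.10, and Acss2 stands apart on the right.

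Arrays of one group correlated at 0.993 to 0.996 over all probe sets and arrays of different groups at 0.982 to 0.990. Of 7 CD8 T cell markers measured, Cd8b1 rose by 0.45 and Prf1, the perforin gene, by 2.52, and the other 5 did not pass. None of 9 myeloid, 5 B cell, 4 dendritic and 2 other lymphoid markers passed, though Cd68 (0.43, adjusted p 0.049) passed with the block. The summed intensity of the 9 myeloid markers was 395 to 447 in evGFP and 439 to 486 in GFP-KLF2, that of the 5 B cell markers 268 to 291 and 265 to 397, and that of the 7 CD8 markers 59570 to 62978 and 63762 to 66843. RMA gives no value of 0, and the lowest intensity deposited was 5.74. That value and these sums are on the linear scale, while the levels of single genes are given as log2. Since macrophages express Abcg1, its rise stands beside these values, and the part of other cell types in it was not tested. The difference between the 3' and 5' probe sets of Actb was 0.111 to 0.121 in evGFP and 0.0773 to 0.0837 in GFP-KLF2, which separated the groups, and its part in these results was not tested.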

How the data were processed

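RNA of sorted CTL was hybridised to Affymetrix 3' IVT mouse arrays, 3 per group, and groups and numbers were taken from the labels. The authors normalised the arrays by RMA (background correction, quantile normalisation, probe set summary) and deposited intensity values on a linear scale, from which log2 was taken here. Versions of the authors' tools are not given in the sources used here. Of 45037 probe sets tested (64 controls left out), 34945 had 1 gene, 932 several and 9160 none in the annotation, and 34741 had a gene in RefSeq of GRCm38.p6. Per-group means were fitted with limma 3.58.1 (R 4.3.3, data.table version 1.17.8), 2-sided, with Benjamini-Hochberg adjustment, after the code was tested on simulated data. Figures used Python 3.11.15, pandas 2.3.3 and matplotlib 3.10.9. The methods print a threshold of 0.046%, while their gene list runs higher, so 0.046 was taken and 0.00046 tried as an alternative. Same-numbered arrays deviated alike (r of 0.33 to 0.47 over all probe sets, against -0.38 to 0.06 otherwise). They were taken as pairs in the replicate block and in the differences within replicate numbers. The main fit, with its calls, SE and intervals, had no pairing. Arrays have no depth, and 3 per group limit the precision. An exact permutation test of 3 against 3 cannot go below 0.1 and was not used. To be named were all 31 genes, up to 4 called genes of each related list by size of change, and markers, while Nr1h3, Mylip, Tecr, Stard3 and the genes called only with the block were named after their values were seen. The members and lists were chosen with earlier results of these data known. Alternatives were the replicate block, other thresholds, a 2-fold minimum, removal of dim or cross-hybridising probe sets, the mean of all or any probe set, median centring, cyclic loess, quantile normalisation, a trend with a robust prior, array weights and leaving out each array.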

Additional observations from a re-analysis of the deposited data

How the results depend on the processing

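The fall of Fasn kept its direction and passed under each scaling, fit and leave-one-out alternative. It was lost at an adjusted p under 0.00046 and at a 2-fold minimum. Fasn also passed under the probe set alternatives, but it has 1 probe set, so these used the same values for it and add no support. The number of genes that rose, 1 of 31, became 2 with the replicate block (pairing of same-numbered arrays), 2 with cyclic loess, 2 without dim probe sets and 2 with the mean of all probe sets, 0 at 0.00046 and 0 to 4 when an array was left out. It was 0 without each evGFP array and without GFP-KLF2 replicate 1 or 2, and 4 without GFP-KLF2 replicate 3 (Abcg1, Cyp51, Fdft1 and Mvd). With the trend and robust prior the 1 gene was Ebp in place of Abcg1. The number that fell, 3, became 0 at 0.00046, 0 at 2-fold and 1 to 4 when an array was left out, with 1 (Fasn) without evGFP replicate 1 or 2 or GFP-KLF2 replicate 2. The 2 probe sets that rose became 1 at 2-fold, 1 with median centring, 1 with quantile normalisation, 0 at 0.00046 and 0 to 7 when an array was left out, and the 5 that fell became 3 with cyclic loess, 0 at 2-fold, 0 at 0.00046 and 1 to 6. The 8 other lipid genes that rose became 4 at 2-fold, 0 at 0.00046 and 5 to 9, and the 11 that fell became 6 with cyclic loess, 2 at 2-fold, 0 at 0.00046 and 4 to 9. Acaca was also lost with cyclic loess (adjusted p 0.0829) and Abcg1 with the trend and robust prior (0.0616). No called value changed sign. The scalings moved the median of all genes by -0.01 to 0.02. Cyclic loess moved the median of the 31 genes from -0.02 to 0.08, and the 5 SREBP regulators from 1 above zero to 3. Causes of these changes were not tested. The block changed no other call of the 31 genes. Dim probe sets such as those of Abca1 limit what can be seen.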
